A study of Homo sapiens with 36 samples.

Results

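GW3965, a synthetic agonist of the liver X receptors (LXR), was set against its vehicle, DMSO, in PANC-1, an established line derived from a human pancreatic ductal adenocarcinoma. The comparison used the 6 PANC-1 libraries of these treatments, 3 with GW3965 and 3 with DMSO, out of 36 libraries in the series. GW3965 was given at 10 µM for 48 h and DMSO for the same time. Both groups grew at 37 °C under 5% CO2 in DMEM that held 10% fetal bovine serum, and no genotype or second agent is given for either. The other libraries came from PANC-1 with 1E5 or 3A4, code-named compounds that the labels class as LXR inverse agonists, and from the pancreatic cancer lines BxPC-3 and MIA PaCa-2 with the same 4 treatments. The titles call the 3 libraries of a group biological replicates and do not state that each had a culture of its own. The p-values therefore cover the variation among these libraries alone, which may be technical.

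LXRα (NR1H3) and LXRβ (NR1H2) are nuclear receptors activated by oxysterols, and they bind DNA as partners of the retinoid X receptors (RXR). With an agonist bound they release corepressors, recruit coactivators and raise transcription of genes for cholesterol export, sterol balance and phospholipid remodelling. They also raise SREBF1, whose product SREBP-1c drives fatty acid synthesis. Cholesterol synthesis itself is mainly controlled by SREBF2, and LXR agonists are best known in liver, intestine and macrophages.

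Libraries held 25045706 to 25671653 counts with GW3965 and 20560783 to 25672534 with DMSO. Mitochondrially encoded genes took 6.14 to 7.36% of counts with GW3965 and 6.0 to 7.23% with DMSO. The ductal markers KRT8 (1490 against 2110 CPM, counts per 1000000 TMM-scaled counts, with GW3965 and DMSO) and KRT19 (844 CPM with GW3965 against 1150 CPM with DMSO) were abundant, while KRT7 was low (4.81 CPM with GW3965 against 5.83 CPM with DMSO) and the mesenchymal marker VIM was high (3170 CPM with GW3965 against 3070 CPM with DMSO). PTPRC, CD3E, PECAM1, INS, PRSS1, DCN and LUM, which mark leukocytes, endothelium, islets, acini and fibroblasts, had no count in any of the 6 libraries. Other markers of those cell types were not all at 0. COL1A1 (97.9 CPM with GW3965 against 102 CPM with DMSO), COL3A1 (3.59 CPM with GW3965 against 7.39 CPM with DMSO) and CD14 (0.378 CPM with GW3965 against 0.894 CPM with DMSO) had counts in all 6, and CELA3A, CDH5 and COL1A2 in 1 library each with 3, 3 and 5 counts. Mean levels over 3 libraries are given here, and values by library follow for the genes the comparison turns on.

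Few genes in PANC-1 were called as changed by GW3965 in the fit reported, and those called were mostly genes of sterol export and lipid metabolism. Of 18544 genes tested, 8 rose (0.0431%) and 1 fell (0.00539%) at an adjusted p below 0.05 in edgeR's quasi-likelihood test. In order of p, the 8 were ABCG1, MYLIP, ABCA1, LPCAT3, ME1, S100P, FDPS and ACLY, and the gene that fell was TMEM263. At an unadjusted p below 0.05 there were 520 higher genes (2.80%) and 311 lower genes (1.68%). At an adjusted p below 0.2, 25 of 26 genes were higher. The median log2 fold change of all genes tested was 0.0, with 90% of genes between the 5th percentile of -0.56 and the 95th of 0.69. Of 864 genes with at least a 2-fold difference, 641 had a mean under 1 CPM. The count of 9 was 35 without DMSO replicate 2, 4 without GW3965 replicate 1 and 99 with DESeq2, which kept all 9. Of all 18544 genes, DESeq2 called 71 higher and 28 lower, the background for its counts in the lists below.

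**Figure D1:**
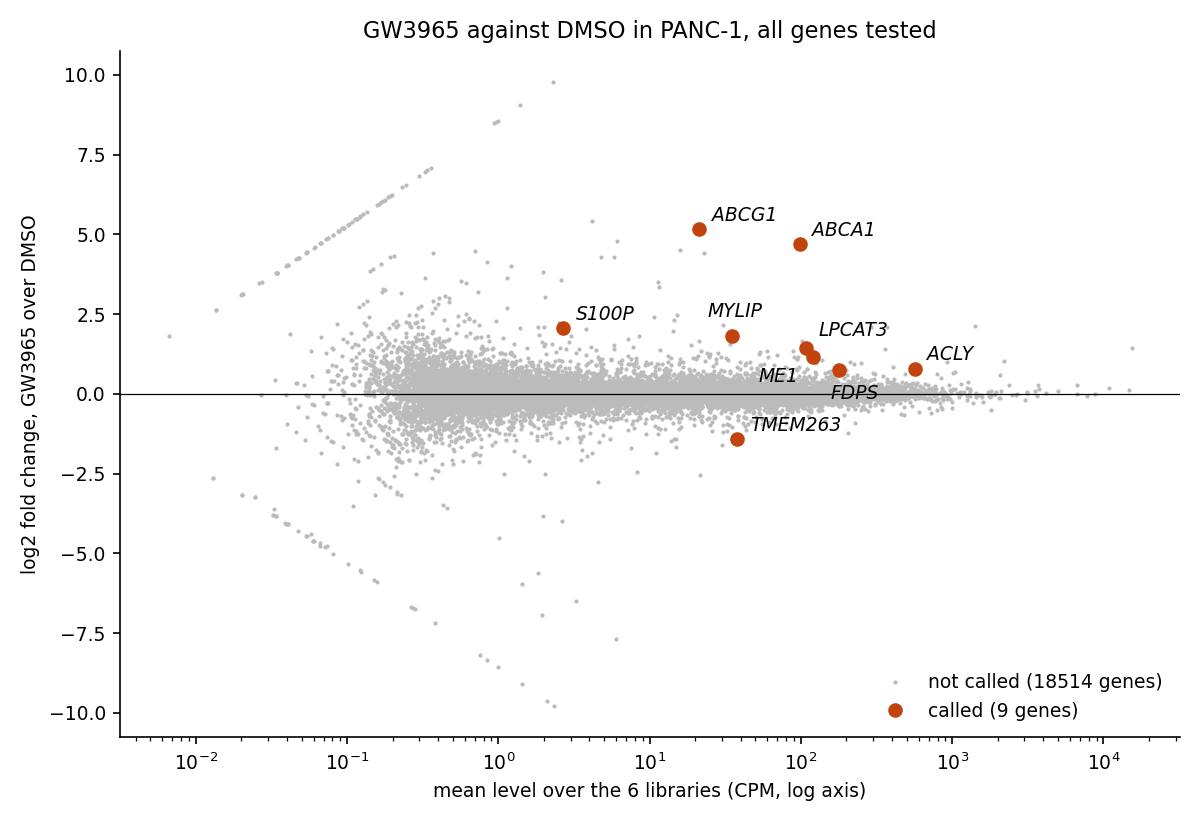
Log2 fold change of GW3965 over DMSO (y axis) against the mean level over the 6 libraries in CPM (x axis, log scale) for 18523 genes, each a point, with the 9 called genes in orange. The remaining 21 genes tested had no count in the 6 libraries and are not drawn. ABCG1 and ABCA1 lie at 5.15 and 4.69, above the other genes near their levels, and the diagonal arms at low levels hold genes with counts in only 1 of the groups.

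The sterol transporters ABCG1 and ABCA1 had the largest fold changes of the 9 genes. ABCA1, which exports cholesterol and phospholipid to apolipoprotein A-I (chromosome 9, 104781002 to 104928237, GRCh38), had 164.5, 240.4 and 165.1 CPM with GW3965 against 5.72, 8.88 and 7.45 CPM with DMSO. Replicate 2 was highest in both groups, and the lowest GW3965 library stood far above the highest DMSO library. The mean was 25.8-fold higher, a log2 fold change of 4.69 ± 0.289 (SE; adjusted p = 1.74e-05, edgeR). In bulk RNA, a larger share of cells that express a gene and more of its RNA per cell cannot be told apart.

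ABCG1, which moves cholesterol towards lipoprotein particles (chromosome 21, 42199689 to 42297244), had 42.3, 43.6 and 38.7 CPM with GW3965 against 1.14, 1.54 and 0.815 CPM with DMSO. The DMSO values rested on 23, 38 and 21 counts, and the groups did not overlap. The gene rose 35.6-fold (log2 5.15 ± 0.294, adjusted p = 1.74e-05, edgeR). Among the sterol and lipid ABC transporters, 11 of 15 were tested and these 2 rose. The other 9 were not called, the lowest being ABCG4 with a log2 fold change of -0.28, and the median of the 11 was -0.02 against 0.0 for all genes.

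Per length of exon, ABCA1 reached 16.7 ± 3.85 CPM per kb with GW3965 against 0.648 ± 0.139 with DMSO (SD, n = 3 each). ABCG1 reached 6.79 ± 0.413 CPM per kb with GW3965 against 0.19 ± 0.0595 with DMSO. With GW3965, ABCA1 thus stood at the level of the surfactant lipid transporter ABCA3 (15.9 ± 1.77 CPM per kb), and both ABC genes stayed below the multidrug transporters ABCG2 (29.6 ± 5.34) and ABCC1 (76.9 ± 4.13). With DMSO they were the lowest of these 5 genes, with ABCA3 at 16.1, ABCG2 at 34.2 and ABCC1 at 81.4 CPM per kb.

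MYLIP, also called IDOL, is a ubiquitin ligase of sterol metabolism (chromosome 6, 16129125 to 16148248). It had 54.1, 58.2 and 52.1 CPM with GW3965 against 15.8, 16.6 and 13.97 CPM with DMSO. The libraries of a group lay close together, and the gene rose 3.55-fold (log2 1.83 ± 0.112, adjusted p = 1.74e-05, edgeR).

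LPCAT3 places polyunsaturated chains in phospholipids (chromosome 12, 6976186 to 7018510). It had 164.3, 159.2 and 147.2 CPM with GW3965 against 60.8, 58.9 and 54.5 CPM with DMSO, with all GW3965 libraries above all DMSO libraries. It rose 2.70-fold (log2 1.43 ± 0.0997, adjusted p = 4.92e-05, edgeR). Of 20 genes of phospholipid and triglyceride assembly, it was the 1 that edgeR called, and DESeq2 called 2. LPIN1, a phosphatidate phosphatase, had 262.0, 247.8 and 201.3 CPM with GW3965 against 138.1, 126.2 and 128.8 CPM with DMSO, a log2 difference of 0.86 ± 0.148 that missed the threshold (adjusted p = 0.114, edgeR). LPIN1 passed with DESeq2 (adjusted p = 0.000116) and, in edgeR, without the 1E5 libraries (adjusted p = 0.0238). The median of the 20 genes was -0.01.

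Promoters were read for the genes that moved, to show where their sequences hold an LXR element or the motifs of other lipid and stress regulators. Each window runs from 250 bases before to 50 bases after the annotated start, and 8 of the 9 called genes had a RefSeq entry (GRCh38.p14), all but ABCG1. The 4 printed here lie at chr9:104928106-104928405 on the minus strand (ABCA1), chr6:16128836-16129135 on the plus strand (MYLIP), chr12:7018427-7018726 on the minus strand (LPCAT3) and chr6:83431002-83431301 on the minus strand (ME1). Capitals mark the DR4 match in ABCA1, CCAAT boxes on either strand in MYLIP and LPCAT3, and matches to the antioxidant response element (ARE) in ME1.
ABCA1: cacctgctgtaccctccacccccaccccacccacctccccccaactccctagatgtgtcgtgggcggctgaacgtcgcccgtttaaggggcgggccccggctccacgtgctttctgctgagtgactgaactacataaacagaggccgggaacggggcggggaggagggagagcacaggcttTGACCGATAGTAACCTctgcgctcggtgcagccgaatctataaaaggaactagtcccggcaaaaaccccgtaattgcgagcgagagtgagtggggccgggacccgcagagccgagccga
MYLIP: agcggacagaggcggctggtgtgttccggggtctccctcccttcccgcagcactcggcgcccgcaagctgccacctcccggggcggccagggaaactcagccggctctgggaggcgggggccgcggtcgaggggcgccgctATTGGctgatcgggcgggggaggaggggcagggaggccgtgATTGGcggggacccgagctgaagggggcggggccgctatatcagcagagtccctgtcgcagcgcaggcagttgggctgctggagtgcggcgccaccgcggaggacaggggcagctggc
LPCAT3: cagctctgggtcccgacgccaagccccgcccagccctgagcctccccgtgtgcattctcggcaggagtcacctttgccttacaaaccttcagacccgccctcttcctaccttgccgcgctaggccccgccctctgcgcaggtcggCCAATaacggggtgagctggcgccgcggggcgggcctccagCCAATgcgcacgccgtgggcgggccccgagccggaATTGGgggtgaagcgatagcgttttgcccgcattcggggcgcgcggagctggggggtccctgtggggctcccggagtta
ME1: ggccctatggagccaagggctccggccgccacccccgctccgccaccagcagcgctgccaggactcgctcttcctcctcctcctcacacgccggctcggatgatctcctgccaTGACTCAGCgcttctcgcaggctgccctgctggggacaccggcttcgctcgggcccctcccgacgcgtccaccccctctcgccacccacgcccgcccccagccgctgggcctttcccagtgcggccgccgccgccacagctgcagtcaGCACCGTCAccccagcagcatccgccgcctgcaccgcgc
The LXR element was searched as a direct repeat of AGGTCA with 4 bases between the copies (DR4), on both strands with at most 3 of 12 named bases different. ABCA1 held 1 match, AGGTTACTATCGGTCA on the opposite strand at -69 to -54 from the start (the start itself being 0), with 2 bases different. Matches with at most 2 different were in 2.42% of 27305 promoters of the same length, and with at most 3 in 18.7%. The other 7 promoters held no DR4 match, nor did those of SREBF1 and SCD. Sequence outside these windows, or at another start of the same gene, was not searched, so an element there would be missed.

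For ME1, the ARE core TGACNNNGC was at -137 to -129 (TGACTCAGC) and, on the opposite strand, at 11 to 19. This core was in 13.6% of promoters. The sterol regulatory element TCACNCCAC, in 1.15% of promoters, was in none of the 8. S100P held the element TGATGNAA, which ATF4 binds with C/EBP factors, at -123 to -116 on the opposite strand, as did 3.67% of promoters. CCAAT boxes were in MYLIP (2), LPCAT3 (3), TMEM263 (1), FDPS (3) and ACLY (2), and in 35.7% of all promoters. GC boxes (GGGCGG) were in 7 of the 8, all but S100P, and in 44.6% of all promoters. A match is a stretch of letters, and binding was not measured.

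Of 22 genes listed as LXR targets, 16 passed the count filter, 4 rose and none fell in edgeR's test, and DESeq2 called 7, all higher. Their median log2 fold change was 0.82 against 0.0 for all genes, and 10 of 16 had every GW3965 library above every DMSO library, against 6.54% of all genes. In 1 of 16 every GW3965 library lay below every DMSO library, against 5.40% of all genes. At an unadjusted p below 0.05, 10 were higher and 1 lower, against 2.80% and 1.68% of all genes. ABCA1, ABCG1, MYLIP and LPCAT3 were the 4 that rose. APOE, the lipoprotein ligand that LXR raises in macrophages, had a log2 difference of -0.04 ± 0.34 and overlapping groups, from 290.3 to 480.4 CPM with GW3965 against 306.8 to 515.5 CPM with DMSO.

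**Figure D2:**
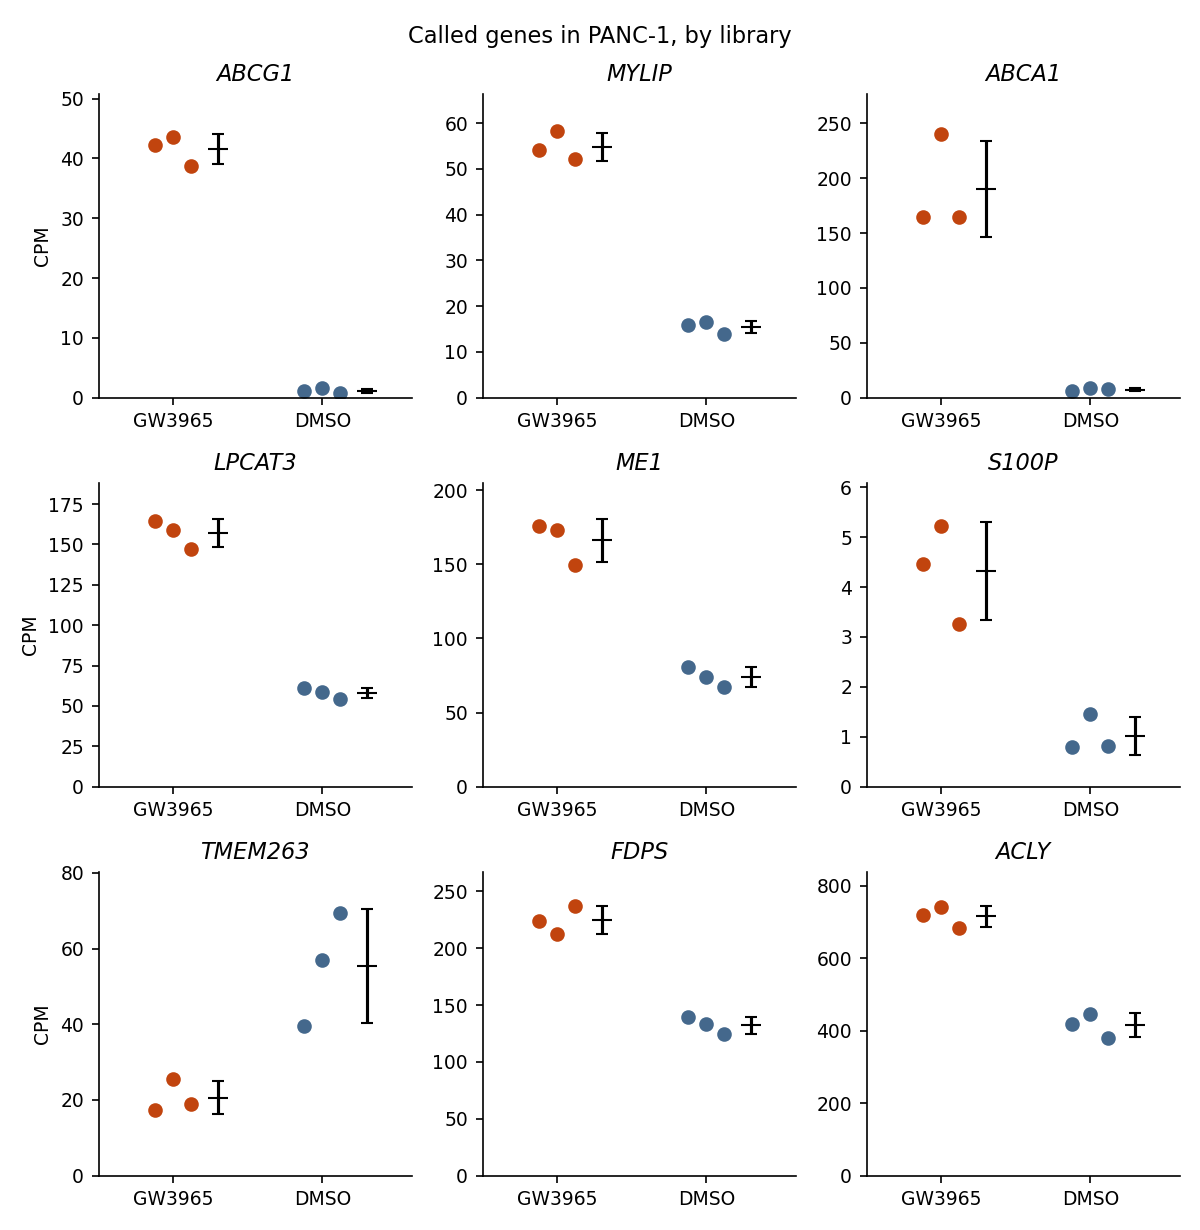
Level in CPM (y axes, from 0) of the 9 called genes in each PANC-1 library, GW3965 in orange and DMSO in blue, with replicates 1 to 3 from left to right and bars for mean ± SD. The 3 GW3965 libraries lie above the 3 DMSO libraries for 8 genes and below them for TMEM263.

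No receptor transcript passed the test. NR1H2 had 44.5, 45.6 and 41.2 CPM with GW3965 against 42.9, 37.1 and 40.3 CPM with DMSO (log2 0.13 ± 0.105), and RXRA had 57.2, 57.4 and 58.0 CPM with GW3965 against 64.5, 63.6 and 58.3 CPM with DMSO (log2 -0.11 ± 0.11). NR1H3, itself an LXR target in human cells, had 11.2, 14.3 and 12.9 CPM with GW3965 against 4.79, 7.18 and 7.96 CPM with DMSO. The groups did not overlap, but the log2 difference of 0.94 ± 0.203 missed the threshold (adjusted p = 0.267, edgeR). Per kb of exon, NR1H2 was at 11.7 ± 0.604 CPM with GW3965 against 10.7 ± 0.782 with DMSO, and NR1H3 at 2.82 ± 0.344 with GW3965 against 1.47 ± 0.365 with DMSO. Of 15 receptor and coregulator genes tested, none was called by edgeR and 1 by DESeq2, and the median was 0.08. At an unadjusted p below 0.05, 1 was higher, against 2.80% of all genes. The coactivator NCOA3 had the lowest log2 fold change, -0.32 ± 0.172.

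Of 18 genes for fatty acid synthesis and NADPH supply, all tested, ME1 and ACLY rose and none fell in edgeR's test, and DESeq2 called 6. At an unadjusted p below 0.05, 11 were higher, against 2.80% of all genes. In 11 of the 18 the GW3965 libraries lay wholly above DMSO, against 6.54% of all genes, and the median log2 fold change was 0.53. ME1, the malic enzyme that makes NADPH in the cytosol, had 176.1, 173.1 and 149.5 CPM with GW3965 against 80.8, 74.1 and 67.5 CPM with DMSO. It rose 2.24-fold (log2 1.17 ± 0.134, adjusted p = 0.00773, edgeR). ACLY, which makes cytosolic acetyl-CoA from citrate, had 719.8, 742.7 and 684 CPM with GW3965 against 419.3, 445.9 and 380.8 CPM with DMSO. It rose 1.72-fold (log2 0.78 ± 0.115, adjusted p = 0.0489, edgeR).

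SREBF1, SCD and FASN, the classical lipogenic LXR targets, were higher in every GW3965 library and still missed the threshold. SREBF1 had 469.7, 576 and 515.9 CPM with GW3965 against 149, 256.7 and 185.3 CPM with DMSO (log2 1.40 ± 0.423, adjusted p = 0.637, edgeR). SCD, the stearoyl-CoA desaturase, had 21900, 25040 and 20480 CPM with GW3965 against 6548, 11540 and 6645 CPM with DMSO (log2 1.45 ± 0.582, adjusted p = 1, edgeR). DMSO replicate 2 was the highest control for both. The fit takes 1 spread per gene from all 12 PANC-1 libraries, and in the 3 libraries with 1E5, SCD varied from 529.1 to 3298 CPM and SREBF1 from 41.9 to 157.8 CPM.

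FASN, the fatty acid synthase, had 3100, 2883 and 2917 CPM with GW3965 against 1437, 1479 and 1452 CPM with DMSO, tight within both groups. Its log2 fold change of 1.03 ± 0.238 missed the threshold in the fit of 12 libraries (adjusted p = 0.332, edgeR) and passed without the 1E5 libraries (adjusted p = 0.0012, edgeR). FASN also passed with the 1E5 libraries kept, by DESeq2 (adjusted p = 0.01) and in the fit of all 36 libraries (adjusted p = 0.0473, edgeR). It passed under 5 of 15 alternative settings, and the cause was not tested. Without the 1E5 libraries SREBF1 and SCD came to adjusted p = 0.054 and 0.0921 in edgeR. Of the remaining genes in this list, ACSS2, which makes acetyl-CoA from acetate, had 110.8, 152.3 and 119.7 CPM with GW3965 against 41.2, 70.9 and 37.4 CPM with DMSO (log2 1.36 ± 0.261). MID1IP1, an activator of acetyl-CoA carboxylase, had a log2 difference of 1.1 ± 0.197 (adjusted p = 0.137, edgeR). SCD5, the desaturase of brain, was at 1.88 to 3.56 CPM with GW3965 against 2.96 to 5.36 CPM with DMSO.

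Genes that desaturate, elongate and activate polyunsaturated fatty acids gave no call in the fit of 12 libraries. FADS1, the front-end desaturase, had 1192, 1383 and 1139 CPM with GW3965 against 563.6, 764 and 543.3 CPM with DMSO (log2 0.99 ± 0.15, adjusted p = 0.059, edgeR). ACSL3, an acyl-CoA synthetase of lipid droplets, had 310.3, 269.7 and 302.3 CPM with GW3965 against 142.1, 161 and 159.8 CPM with DMSO (log2 0.93 ± 0.145, adjusted p = 0.0674, edgeR). Both genes had groups that did not overlap. Of 13 genes in this list none was called by edgeR and 2 by DESeq2 or limma-voom. Of the 13, 6 were higher at an unadjusted p below 0.05, against 2.80% of all genes. Without overlap 7 were higher, against 6.54% of all genes, and the median was 0.34. Without the 1E5 libraries ACSL3 passed (adjusted p = 0.00449, edgeR), and without DMSO replicate 2 FADS1 passed (adjusted p = 0.00784, edgeR).

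Of 20 genes of cholesterol synthesis, edgeR called FDPS alone and DESeq2 called 2, FDPS and LSS. FDPS, which makes farnesyl diphosphate, had 223.7, 212.6 and 237.5 CPM with GW3965 against 139.6, 133 and 124.6 CPM with DMSO. It rose 1.70-fold (log2 0.76 ± 0.111, adjusted p = 0.0489, edgeR). At an unadjusted p below 0.05, 6 of the 20 were higher, against 2.80% of all genes. In 12 of the 20 the GW3965 libraries lay above DMSO without overlap, against 6.54% of all genes. The median log2 fold change was 0.37. LSS, the lanosterol synthase, had 362.6, 372.9 and 360 CPM with GW3965 against 219.7, 251.8 and 221.3 CPM with DMSO (log2 0.66 ± 0.131, adjusted p = 0.215, edgeR).

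Not all steps of cholesterol synthesis had higher values. SQLE, the squalene epoxidase, had a log2 difference of 0.12 ± 0.216 with overlapping groups. TM7SF2, a sterol reductase, had 40.4, 49.8 and 35.4 CPM with GW3965 against 53.7, 58.6 and 50.1 CPM with DMSO, with every GW3965 library below every DMSO library (log2 -0.37 ± 0.177). Of 13 tested genes of cholesterol uptake and trafficking none was called by edgeR and 1 by DESeq2, and the median was 0.17. At an unadjusted p below 0.05, 1 was higher, against 2.80% of all genes. NPC1, which exports cholesterol from lysosomes, had 211.3, 205.8 and 187.8 CPM with GW3965 against 134.6, 145.9 and 135.5 CPM with DMSO without overlap (log2 0.54 ± 0.0978, adjusted p = 0.143, edgeR). Of 15 genes of lipid droplets and fatty acid oxidation none was called by edgeR or DESeq2, and the median was 0.03. At an unadjusted p below 0.05, 3 were higher and 1 lower, against 2.80% and 1.68% of all genes. PDK4, a kinase that restrains pyruvate oxidation, had 9.46, 11.2 and 9.14 CPM with GW3965 against 4.24, 4.67 and 4.19 CPM with DMSO (log2 1.18 ± 0.33), and HADHA of mitochondrial β-oxidation had a log2 difference of 0.37 ± 0.12.

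**Figure D3:**
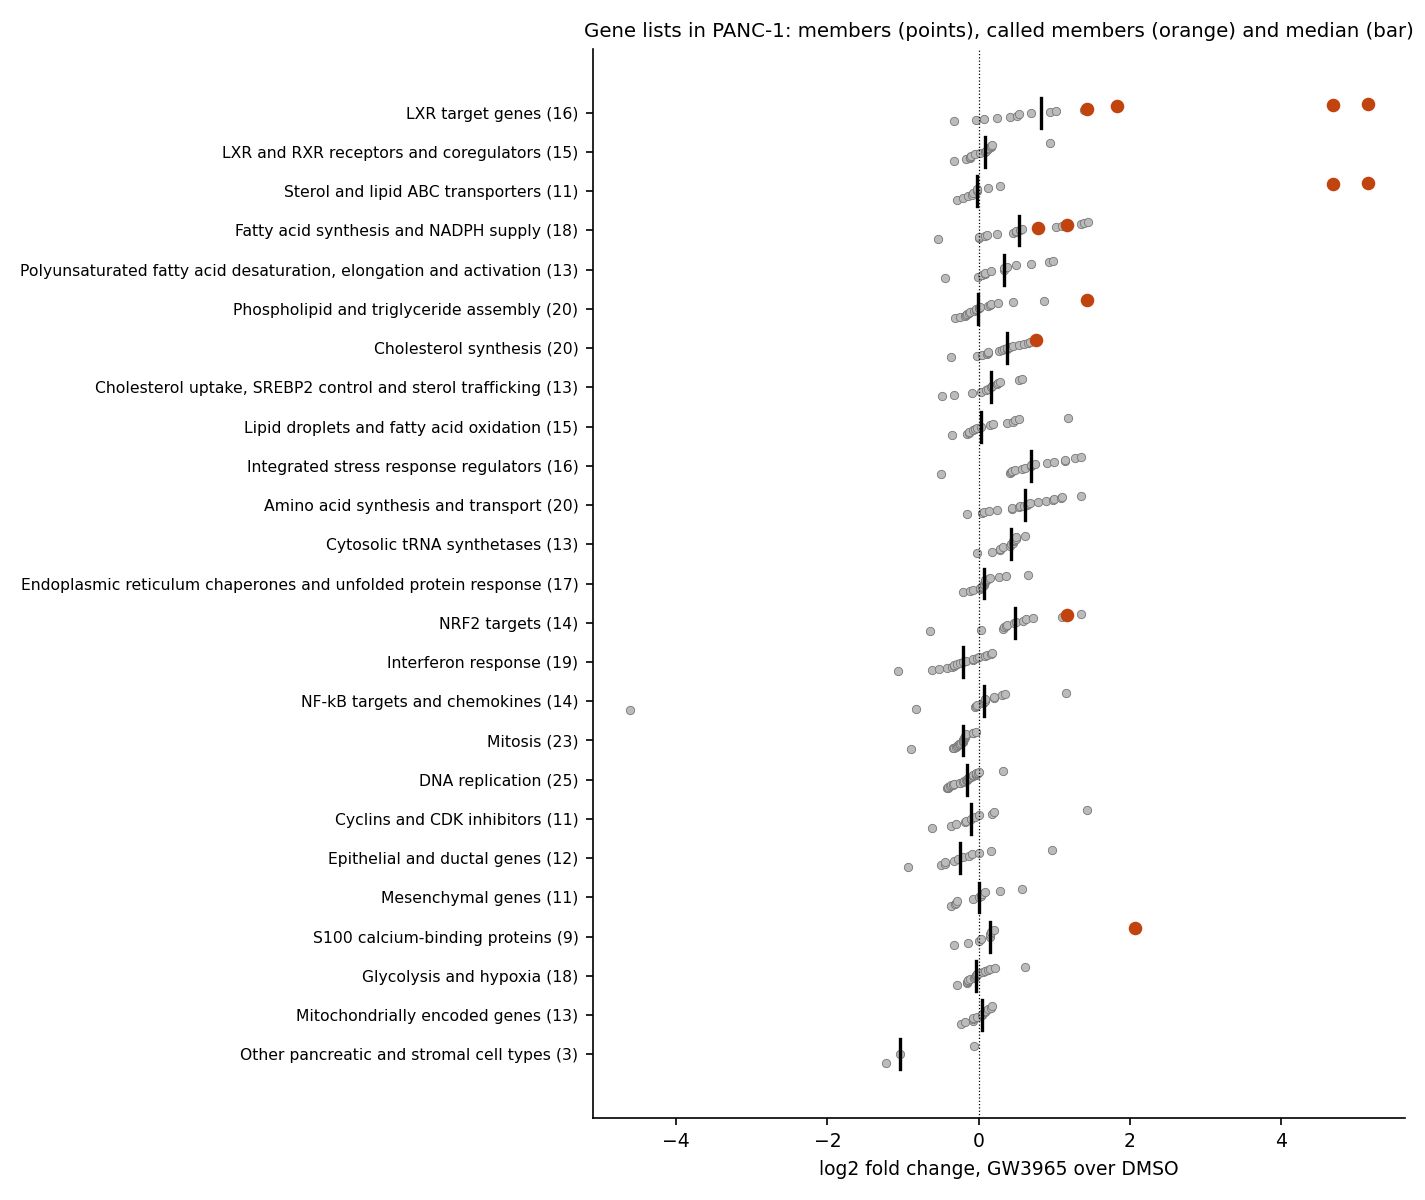
Log2 fold change of GW3965 over DMSO (x axis) for the tested members of 25 gene lists (rows, number tested in parentheses), with called members in orange and the list median as a black bar. Some genes are in more than 1 list. The medians run from 0.82 for LXR targets and 0.70 for integrated stress response regulators to -0.24 for epithelial genes, leaving aside the 3 tested markers of other cell types at -1.04.

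Called genes outside these lipid lists were S100P and TMEM263. S100P, a calcium-binding protein known for its expression in pancreatic adenocarcinoma, had 4.47, 5.23 and 3.27 CPM with GW3965 against 0.79, 1.46 and 0.815 CPM with DMSO. Its counts were low, 109, 132 and 80 with GW3965 against 16, 36 and 21 with DMSO. The log2 fold change was 2.07 ± 0.265 (adjusted p = 0.0194, edgeR), and none of the other 8 S100 genes tested was called. The median of the 9 was 0.15. TMEM263, which encodes a membrane protein, had 17.4, 25.5 and 18.9 CPM with GW3965 against 39.5, 57.1 and 69.4 CPM with DMSO. It fell by 1.43 ± 0.196 on the log2 scale (adjusted p = 0.034, edgeR).

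The 9 calls were not equally firm. ABCA1, ABCG1, MYLIP and LPCAT3 passed under all 15 alternative settings run, and ME1 under 13. S100P, TMEM263 and ACLY passed under 7 each and FDPS under 4. Leaving out GW3965 replicate 1 ended the calls of ME1 (adjusted p = 0.0674, edgeR), S100P, TMEM263, ACLY and FDPS, and leaving out DMSO replicate 3 ended the same 5. The log2 fold changes of these 5 stayed between 1.1 and 1.24 for ME1, 1.91 and 2.42 for S100P, -1.62 and -1.23 for TMEM263, 0.73 and 0.84 for ACLY and 0.72 and 0.80 for FDPS.

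Genes of the integrated stress response, through which ATF4 raises amino acid supply, gave no call in edgeR's fit of 12 libraries. Among the regulators, 15 of 16 had a log2 fold change above 0, against 9228 of all 18544 genes. Of 16 regulators none was called by edgeR and 2 by DESeq2. Of the 16, 11 were higher at an unadjusted p below 0.05, against 2.80% of all genes. Without overlap 8 were higher, against 6.54% of all genes, and the median log2 fold change was 0.70. ATF4 had 366.3, 397.8 and 351.3 CPM with GW3965 against 203.5, 319.3 and 208.7 CPM with DMSO (log2 0.61 ± 0.168, adjusted p = 0.566, edgeR). TRIB3, a pseudokinase induced by ATF4, had 141.7, 145.2 and 107.5 CPM with GW3965 against 56.8, 71.2 and 49.4 CPM with DMSO (log2 1.15 ± 0.276). CEBPG, a partner of ATF4, had a log2 difference of 0.70 ± 0.156 (adjusted p = 0.27, edgeR). DMSO replicate 2 was the highest control for all 3 genes.

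Of 20 genes of amino acid synthesis and transport none was called by edgeR. DESeq2 called 5, against 99 of all 18544 genes. Of the 20, 14 were higher at an unadjusted p below 0.05, against 2.80% of all genes. Without overlap 12 were higher, against 6.54% of all genes, and the median was 0.62. PHGDH, the first enzyme of serine synthesis, had 137.5, 129.7 and 119.1 CPM with GW3965 against 54.7, 80.8 and 45.4 CPM with DMSO (log2 1.09 ± 0.187, adjusted p = 0.109, edgeR). SLC1A5, a glutamine transporter, had 197.2, 198 and 172.7 CPM with GW3965 against 122.2, 138.4 and 115.1 CPM with DMSO (log2 0.60 ± 0.1, adjusted p = 0.106, edgeR). ASNS, the asparagine synthetase, had 274.1, 328.3 and 248.3 CPM with GW3965 against 129.7, 192.4 and 103.1 CPM with DMSO. Among 13 cytosolic tRNA synthetases none was called by edgeR and 3 by DESeq2. Of the 13, 9 were higher at an unadjusted p below 0.05, against 2.80% of all genes. Without overlap 11 were higher, against 6.54% of all genes. The median was 0.43, with log2 differences for GARS1 and SARS1 of 0.61 ± 0.149 and 0.46 ± 0.107.

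In these gene groups DMSO replicate 2 stood apart from the other controls. Its list median, as log2 CPM minus the DMSO mean, was 0.37 for the stress regulators against -0.18 and -0.23 in DMSO replicates 1 and 3, and 0.32 for the amino acid genes against -0.09 and -0.18. The GW3965 libraries stood at 0.66, 0.89 and 0.57 for the stress regulators and at 0.66, 0.71 and 0.46 for the amino acid genes. Replicate 2 was thus the highest library of both groups in both lists. Leaving out DMSO replicate 2 while GW3965 replicate 2 stays widens the difference between the groups. Without DMSO replicate 2, 30 genes were higher at an adjusted p below 0.05 (0.156% of 19212), among them 2 stress regulators, 4 amino acid genes and 2 tRNA synthetases. These were ATF4, STC2, PHGDH, ASNS, PSAT1, SLC1A5, GARS1 and CARS1. With any of the other 5 libraries left out instead, edgeR called 0 genes of these 3 lists. In the fit without DMSO replicate 2, PHGDH had a log2 fold change of 1.36 ± 0.15 (adjusted p = 0.00553, edgeR) and ATF4 of 0.85 ± 0.128 (adjusted p = 0.0355, edgeR).

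**Figure D4:**
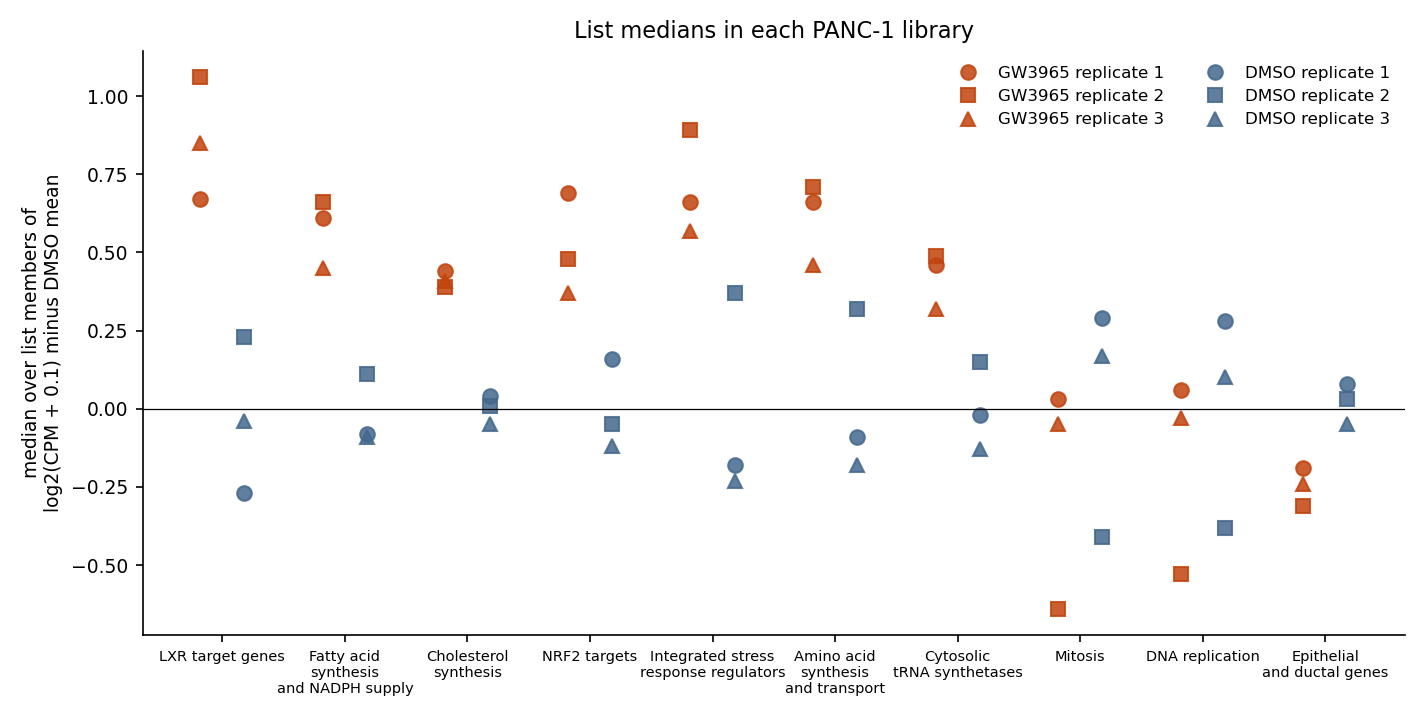
Median over list members of log2(CPM + 0.1) minus the DMSO mean (y axis) in each PANC-1 library, for 10 gene lists, with GW3965 in orange, DMSO in blue and a symbol per replicate number. GW3965 libraries lie above DMSO for the first 7 lists, with DMSO replicate 2 nearest to them in the stress and amino acid lists. For mitosis and DNA replication the replicate 2 libraries of both groups lie lowest.

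Endoplasmic reticulum chaperones had a median of 0.07, with none of 17 called by edgeR or DESeq2. At an unadjusted p below 0.05, 2 were higher, against 2.80% of all genes. HSPA5, the chaperone BiP, had 1368, 1314 and 1044 CPM with GW3965 against 804.3, 821 and 749.9 CPM with DMSO (log2 0.65 ± 0.17, adjusted p = 0.5, edgeR). HYOU1, another chaperone, had a log2 difference of 0.36 ± 0.115. Of 14 tested NRF2 targets, edgeR called ME1 alone, and DESeq2 called 4, ME1, OSGIN1, HMOX1 and FTL. Of the 14, 9 did not overlap and were higher, against 6.54% of all genes, and the median was 0.48. OSGIN1, an NRF2 target of oxidative stress, had 10.6, 12.6 and 7.43 CPM with GW3965 against 5.38, 4.54 and 4.35 CPM with DMSO (log2 1.1 ± 0.195, adjusted p = 0.131, edgeR). HMOX1, the haem oxygenase, had 203.4, 212.3 and 167.5 CPM with GW3965 against 122.7, 124.6 and 108 CPM with DMSO (log2 0.72 ± 0.179).

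Proliferation and identity genes gave no call with edgeR or DESeq2. At an unadjusted p below 0.05, 1 mitosis gene, no replication gene and 1 epithelial gene were lower, against 1.68% of all genes. Of all 18544 genes tested, 9228 had a log2 fold change above 0, while all 23 mitosis genes lay below 0. The mitosis genes had a median of -0.21 and overlapping groups throughout. Their list median was 0.03, -0.64 and -0.05 in the GW3965 libraries against 0.29, -0.41 and 0.17 in the DMSO libraries. It was lowest in replicate 2 of both. Since the list median shifted by library, its members cannot be counted as independent cases. BIRC5, the apoptosis inhibitor survivin, had 37.1, 19.4 and 29.9 CPM with GW3965 against 68.1, 32.1 and 61.2 CPM with DMSO (log2 -0.90 ± 0.304, adjusted p = 0.849, edgeR). The median of 25 DNA replication genes was -0.15, with GINS1 and MCM3 at -0.42 and -0.36. CCND2, a D-type cyclin, was at 2.05, 2.89 and 1.80 CPM with GW3965 against 0.79, 0.852 and 0.854 CPM with DMSO, and the CDK inhibitor CDKN2C at 42.6, 31.5 and 39.7 CPM with GW3965 against 63.7, 48.6 and 61.1 CPM with DMSO. Neither passed (adjusted p = 0.332 and 0.495, edgeR), and the median of the 11 cyclins and CDK inhibitors tested was -0.10.

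Of 12 epithelial genes tested none was called, and the median was -0.24. Without overlap 4 were lower, against 5.40% of all genes. KRT8 had 1769, 1259 and 1450 CPM with GW3965 against 2555, 1759 and 2023 CPM with DMSO, with an overlap between the highest GW3965 and the lowest DMSO library (log2 -0.50 ± 0.162, adjusted p = 0.762, edgeR). ELF3, an epithelial transcription factor, had 30.9, 32.6 and 28.9 CPM with GW3965 against 64.6, 63.8 and 48.2 CPM with DMSO (log2 -0.94 ± 0.536). CLDN4 varied from 1.501 to 239.5 CPM within the DMSO group alone. The 11 mesenchymal genes had a median of 0.01, with FN1 and ZEB1 at -0.29 and -0.31, the 18 genes of glycolysis and hypoxia one of -0.04, and the 13 mitochondrially encoded genes one of 0.04. VEGFA, of the hypoxia genes, had a log2 difference of 0.62 and was called without DMSO replicate 2 (adjusted p = 0.0364, edgeR).

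Among 19 interferon response genes none was called by edgeR or DESeq2, and the median was -0.20. Of these, 1 was lower at an unadjusted p below 0.05, against 1.68% of all genes. None was free of overlap, against 6.54% (higher) and 5.40% (lower) of all genes. OASL was the lowest, with 6.43, 10.3 and 5.35 CPM with GW3965 against 14.4, 21.99 and 9.71 CPM with DMSO (log2 -1.06 ± 0.399). The 14 NF-kB targets and chemokines tested had a median of 0.07 and no call by either tool. At an unadjusted p below 0.05, 1 was higher and 1 lower, against 2.80% and 1.68% of all genes. CCL20 among the 14 was at 0, 0 and 0 CPM with GW3965 against 0, 0.162 and 0.194 CPM with DMSO. Of 18 markers of other pancreatic and stromal cell types, 15 were too low to test. The 3 tested were CD14, COL3A1 and COL1A1, with log2 differences of -1.23, -1.04 and -0.06, and CD14 was below 1.2 CPM in every library.

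Across all genes tested, 404 uncalled protein-coding genes had a mean of at least 5 CPM, an unadjusted p below 0.05 and groups without overlap. The highest fold changes among them were those of SLCO4C1, MDM4, ZNF583, LAMP3, ZNF678 and SCD, from 2.47 to 1.45 on the log2 scale. SLCO4C1, an organic anion transporter, had 22.7, 33.5 and 20.5 CPM with GW3965 against 2.12, 9.09 and 2.52 CPM with DMSO (adjusted p = 0.374, edgeR). LAMP3, a lysosomal membrane protein, had 28.0, 47.2 and 21.6 CPM with GW3965 against 6.42, 17.2 and 6.87 CPM with DMSO (log2 1.66 ± 0.376, adjusted p = 0.294, edgeR). Both genes passed without DMSO replicate 2 (adjusted p = 0.049 and 0.0224, edgeR), the highest DMSO library for each. GW3965 replicate 2, which stayed in that fit, was also the highest of its group for each.

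The lowest were PLLP, APC, KCNK3, TIMM8B, MDGA1 and PSME3, from -1.47 to -1.06. TIMM8B, a chaperone of mitochondrial protein import, had 25.6, 22.3 and 33.0 CPM with GW3965 against 59.2, 59.8 and 60.3 CPM with DMSO (log2 -1.15 ± 0.25, adjusted p = 0.267, edgeR). PSME3, a proteasome activator, had 50.7, 42.3 and 71.6 CPM with GW3965 against 119.1, 101.8 and 123.3 CPM with DMSO (log2 -1.06 ± 0.225, adjusted p = 0.258, edgeR). APC, the Wnt pathway suppressor, had 13.8, 21.97 and 19.6 CPM with GW3965 against 32.5, 52.0 and 42.7 CPM with DMSO, with an SE of 0.504. Reads at overlapping transcripts can be split between genes by the counting method, so these values are uncertain where another gene shares the locus.

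The compounds 1E5 and 3A4 were set against the same 3 DMSO libraries, and 39.1% of genes were called with 1E5 and 7.37% with 3A4. Since the controls are shared, the values are given side by side and not compared. ABCA1 had log2 fold changes of 4.69 with GW3965, 0.33 with 1E5 and 0.20 with 3A4, and MYLIP of 1.83, 0.18 and 0.10. ABCG1 had 5.15 with GW3965, 2.36 with 1E5 (adjusted p = 6.37e-05, edgeR) and -0.65 with 3A4. LPCAT3 had 1.43 with GW3965, -1.75 with 1E5 and -0.66 with 3A4, all 3 called. FASN had 1.03, -2.46 and -1.24, ACLY 0.78, -1.48 and -0.80, and FDPS 0.76, -1.42 and -0.90 in the same order. S100P had 2.07 with GW3965 and 5.44 with 1E5, where it averaged 44.9 ± 2.92 CPM (SD, n = 3), and TRIB3 had 1.15 and 1.26.

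The response of PANC-1 was then set against that of the 2 other lines in a fit of all 36 libraries, which tested 22132 genes for a difference in log2 fold change. In the comparison with BxPC-3, line and culture medium cannot be told apart. Against BxPC-3, 11 genes differed (0.0497%), each with a higher fold change in PANC-1. ABCG1 differed most, by 5.21 ± 0.552 on the log2 scale (adjusted p = 6.15e-06, edgeR). It averaged 41.5 ± 2.53 CPM with GW3965 against 1.16 ± 0.364 with DMSO in PANC-1, and 8.85 ± 3.78 CPM with GW3965 against 9.05 ± 2.76 with DMSO in BxPC-3 (SD, n = 3 each). ABCA1, which rose in both lines, had a difference of 1.81 ± 0.446 that missed the threshold (adjusted p = 0.216, edgeR).

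Of the 11 genes, 5 were in the interferon list, among them USP18, ISG15, IFIT1 and RIGI. ISG15, a ubiquitin-like protein, averaged 32.8 ± 2.52 CPM with GW3965 against 33.3 ± 3.64 with DMSO in PANC-1, and 105 ± 12.7 CPM with GW3965 against 349 ± 104 with DMSO in BxPC-3. USP18, the protease that removes it from proteins, averaged 10.8 ± 0.749 CPM with GW3965 against 12.4 ± 1.39 with DMSO in PANC-1, and 7.89 ± 1.92 CPM with GW3965 against 48.1 ± 23.8 with DMSO in BxPC-3. The differences were 1.74 ± 0.277 for ISG15 and 2.43 ± 0.346 for USP18 (adjusted p = 0.00459 and 0.00119, edgeR), and both genes fell in BxPC-3, by 1.74 and 2.60 on the log2 scale, with -0.02 and -0.20 in PANC-1. LAMP3 had log2 fold changes of 1.66 in PANC-1 and -1.72 in BxPC-3, a difference of 3.41 ± 0.533 (adjusted p = 0.00459, edgeR). The others among the 11 included PRXL2A, SMOX, MDH1B and IFI35. With only the compared groups in the fit 10 genes differed, 5 of them shared, and LAMP3, IFIT1, RIGI, IFI35, SMOX and MDH1B were no longer called. The count of 11 fell to 5 without PANC-1 DMSO replicate 1, and to 7 without PANC-1 GW3965 replicate 2 or replicate 3.

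Against MIA PaCa-2, LHFPL6 and SULF2 differed (0.00904% of genes). LHFPL6 averaged 25.2 ± 1.44 CPM with GW3965 against 25.5 ± 0.541 with DMSO in PANC-1, and SULF2, an extracellular sulfatase, 2.54 ± 0.546 CPM with GW3965 against 3.56 ± 1.11 with DMSO. In MIA PaCa-2 the 3 DMSO libraries held 0 counts of either, so the fitted differences of -9.08 and -8.80 depend on the prior count and are no bounds. The MIA PaCa-2 GW3965 libraries held 12, 62 and 4 counts of LHFPL6 and 9, 34 and 0 of SULF2. Against a floor of 3 counts over the DMSO group, the GW3965 mean in that line was 20.3-fold higher for LHFPL6 and 10.5-fold higher for SULF2. These ratios leave out the spread among the GW3965 libraries. For SULF2, 1 GW3965 library held 0 counts, as did every DMSO library. SULF2 was no longer called by limma-voom, in the fit of the compared groups alone, or once the 1E5 libraries were removed. MIA PaCa-2 libraries were shallower, with 2701393 to 13631719 counts with GW3965 and 3609582 to 10996848 with DMSO. ABCA1 (1.79 ± 0.465) and ABCG1 (2.11 ± 0.542) had higher fold changes in PANC-1 than in MIA PaCa-2 by amounts that missed the threshold (adjusted p = 0.266 and 0.248, edgeR).

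SREBF1, SCD and FASN were called in both other lines, where 1.32% (BxPC-3) and 0.523% (MIA PaCa-2) of genes were called. SCD had log2 fold changes of 1.45 ± 0.582 in PANC-1, 1.89 ± 0.349 in BxPC-3 and 1.59 ± 0.202 in MIA PaCa-2. FASN had 1.03 ± 0.238, 1.55 ± 0.192 and 1.27 ± 0.163, and SREBF1 1.40 ± 0.423, 1.58 ± 0.244 and 0.77 ± 0.128 in the same order. The differences of PANC-1 from BxPC-3 were -0.42 ± 0.62 for SCD, -0.49 ± 0.30 for FASN and -0.15 ± 0.435 for SREBF1, none past the threshold. The level of SCD with GW3965 was 22500 ± 2330 CPM in PANC-1, against 6050 ± 707 in BxPC-3 and 4690 ± 1040 in MIA PaCa-2. With DMSO it was 8240 ± 2860 CPM in PANC-1, against 1630 ± 268 in BxPC-3 and 1560 ± 214 in MIA PaCa-2. TMEM263, which fell in PANC-1, had fold changes of 0.28 ± 0.339 in BxPC-3 and -0.06 ± 0.283 in MIA PaCa-2, and the differences from PANC-1 missed the threshold (adjusted p = 0.261 and 0.485, edgeR).

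**Figure D5:**
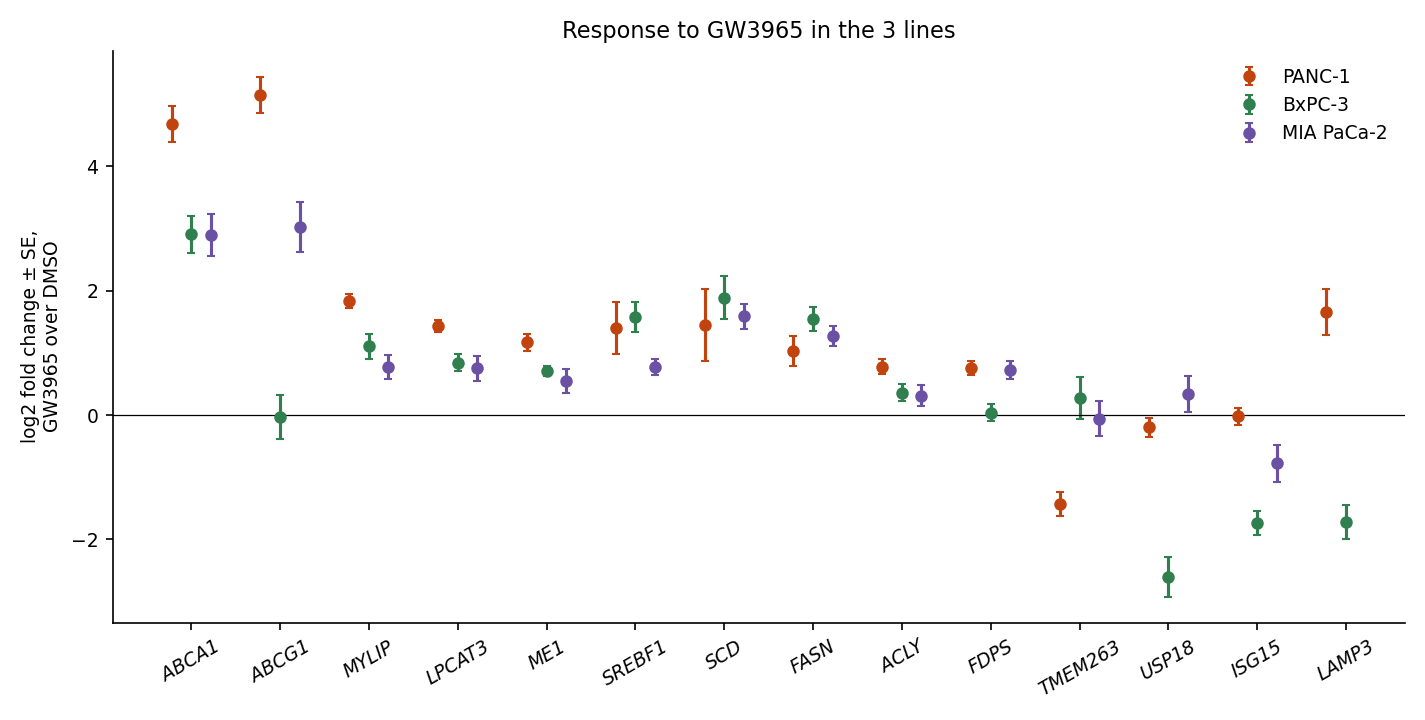
Log2 fold change of GW3965 over DMSO with its SE (y axis) for 14 genes in PANC-1 (orange), BxPC-3 (green) and MIA PaCa-2 (purple), each from the fit of its own line. LAMP3 is not drawn for MIA PaCa-2, where the DMSO libraries held no count. ABCG1 lies at 5.15, -0.03 and 3.03, while SCD and FASN lie close together in the 3 lines.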

How the data were processed

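RNA was purified on columns, and 500 ng per sample went into stranded total RNA libraries, per the labels' protocols. The authors deposited 1 table of raw counts per gene. Trim Galore 0.4.4, HISAT2 2.0.2, SAMtools 1.3, StringTie 1.3.1c and GRCh38 are named in the submitters' processing notes. The sources used here give neither their settings, nor the annotation, nor whether counting used strand. Without knowing that, reads of overlapping or antisense genes cannot be told apart. Of 58658 lines, 58243 genes were kept, and 57532 matched a symbol. The 407 lines named by transcript and 8 assembled loci were left out, at most 0.00396% of a library's counts.

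Counts were tested as deposited with edgeR 4.0.16 (R 4.3.3) in a quasi-likelihood fit of the 12 PANC-1 libraries. Each treatment had its own mean, scaling was by TMM, and low genes were removed by filterByExpr (minimum count 10, minimum total 15). Two-sided p-values were adjusted over every tested gene by the Benjamini-Hochberg method, and 0.05 was the threshold. The SE was computed from the log2 fold change and its F statistic. CPM are counts per 1000000 of the TMM-scaled total, and levels per kb use exon lengths and coordinates of GENCODE 29. A group had no overlap where its lowest library lay above the other's highest. Differences between lines were interaction terms in 1 fit of 36 libraries. Tables were read with Python 3.11.15 and pandas 2.3.3, and the fit was tested on simulated data. Replicates differed by more than sampling noise, with chi-square per degree of freedom from 27.1 to 42.7, so none was counted as a duplicate.

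Alternatives were RLE scaling, no filter, the replicate number as a block, DESeq2 1.42.0, limma-voom (limma 3.58.1), other sets of libraries and leaving out each of the 6 libraries. Genes were named if called, if core LXR genes, if among the 6 highest or lowest uncalled fold changes that had an unadjusted p below 0.05, no overlap and a mean of at least 5 CPM, if among the 2 lowest p of a list, or if among the 4 lowest p of a called difference between lines. The members and lists were chosen with earlier results of these data known, lists share members, and genes named beside this rule were chosen after their values were seen. Some list members are not reported here by name.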

Additional observations from a re-analysis of the deposited data

Results flagged for a closer look

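The response to GW3965 differed between PANC-1 and BxPC-3, by a test of the difference in edgeR, for ABCG1 (5.21 on the log2 scale), LAMP3 (3.41), USP18 (2.43) and ISG15 (1.74). Line and culture medium cannot be told apart in this comparison. ABCG1 averaged 41.5 CPM with GW3965 against 1.16 CPM with DMSO in PANC-1, and 8.85 CPM with GW3965 against 9.05 CPM with DMSO in BxPC-3. LAMP3 averaged 32.3 CPM with GW3965 against 10.1 CPM with DMSO in PANC-1, and 5.66 CPM with GW3965 against 18.6 CPM with DMSO in BxPC-3. LAMP3 lost its call with only the compared groups in the fit. USP18 and ISG15 were lower with GW3965 in BxPC-3 alone of these 2 lines by edgeR's test.

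Between PANC-1 and MIA PaCa-2 the response differed for LHFPL6 (-9.08) and SULF2 (-8.80). Both fitted values rest on MIA PaCa-2 DMSO libraries with 0 counts, so they are no estimate of size. SULF2 lost its call in limma-voom, in the fit of the compared groups alone, and once the 1E5 libraries were removed. In PANC-1, LHFPL6 averaged 25.2 CPM with GW3965 against 25.5 CPM with DMSO.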

How the results depend on the processing

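The count of 9 genes changed by GW3965 was 99 with DESeq2, 15 without the 1E5 libraries and 19 with all 36 libraries, and lay between 4 (without GW3965 replicate 1) and 35 (without DMSO replicate 2) when 1 library was left out. It was 7 with RLE scaling, 10 without a filter, 10 with limma-voom and 13 with only the compared groups. The 11 genes that differed from BxPC-3 became 23 with the replicate block, 77 with DESeq2, 22 with limma-voom and 21 without the 1E5 libraries. They became 5 to 8 with 1 PANC-1 library left out. With only the compared groups they were 10, of which 5 were shared and LAMP3 was not. The 2 that differed from MIA PaCa-2 became 46 with DESeq2 and 2 to 3 with 1 PANC-1 library left out. SULF2 was lost in limma-voom, in the fit of the compared groups alone, and once the 1E5 libraries were removed. Single libraries of BxPC-3 or MIA PaCa-2 were not left out, so how far a call rests on 1 of those was not tested. The cause of these changes in count was not tested. Of the named genes' values under the alternatives, 943 kept direction and side of the threshold, 37 lost a call, 48 gained one and 5 changed sign. Those were ISG15 (0.04 without DMSO replicate 1, 0.01 without GW3965 replicate 1 or 3) and LHFPL6 (0.01 without GW3965 replicate 2 or 3), each -0.02 in the fit reported and down to -0.11 (ISG15) and -0.07 (LHFPL6) with another library left out.

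With the replicate number as a block there were 10 calls, 7 shared with the 9. With only the compared groups and the block, chosen after seeing the data, there were 6. Same-numbered libraries correlated at 0.157, 0.135 and 0.0959 in their deviations, and libraries of different numbers at -0.11 to -0.021. Every library thus correlated best with its own number. The titles do not state that the numbers pair the libraries, and the fit reported does not use them. Variation shared by same-numbered libraries therefore enters the SE of that fit. With 3 libraries a group, the median SE was 0.24 on the log2 scale, and genes under 1 CPM rest on few counts.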
